A study of Mus musculus with 18 samples.

Results

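Gene expression in the testis after the microbiota transfer labelled control-FMT was compared with that of mice on the same diet with streptozotocin and no transfer. The comparison took 6 of the 18 RNA sequencing libraries of the series, 3 in each group, chosen by their labels alone. Of 20979 genes, the 13874 with at least 1 RPKM (reads scaled by gene length and by library total) in at least 3 of the 18 libraries were tested. The study set fecal microbiota transfer (FMT) against testicular injury in mice given HFD, a fat-rich diet, and STZ. STZ is streptozotocin, which kills the pancreatic cells that make insulin. All libraries came from testes of ICR mice, an outbred stock, aged 10 weeks.

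The group HFD_STZ_control_FMT, called control-FMT here, had the diet with STZ and the transfer of that label. HFD_STZ_AOS_FMT, called AOS-FMT, had the diet with STZ and a transfer labelled with AOS at 10 mg/kg. How donors were treated was not stated. HFD_STZ_AOS had the diet with STZ and AOS itself, HFD_STZ had the diet with STZ alone, AOS had 10 mg/kg of AOS without the diet, and control had neither. AOS is not spelled out in the labels. The diet and STZ were thus shared by control-FMT and HFD_STZ, and the diet, STZ and a transfer were shared by control-FMT and AOS-FMT. No group was labelled as a sham or vehicle transfer, so the donor's microbiota and the transfer procedure cannot be told apart in control-FMT against HFD_STZ. Whether the 3 libraries of a group were separate animals was not stated, and the p-values cover only the spread among libraries, some of which may be technical.

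As background, Leydig cells lie between the seminiferous tubules and make testosterone from cholesterol. Star brings cholesterol into the mitochondrion, Cyp11a1 cuts its side chain, and the 3-beta-hydroxysteroid dehydrogenases, in mouse testis Hsd3b1 and Hsd3b6, turn pregnenolone into progesterone, which Cyp17a1 hydroxylates. Inside the tubules, Sertoli cells support germ cells through meiosis and through the remodelling of round spermatids into sperm.

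Expression of testis markers fitted the tissue label. In control-FMT and HFD_STZ libraries the protamine gene Prm1 lay between 12857 and 16113 RPKM, the transition protein gene Tnp1 between 6358 and 8325 RPKM, and the Leydig cell hormone gene Insl3 between 2275 and 3881 RPKM. The Sertoli cell gene Cldn11 lay between 32.7 and 38.1 RPKM, while the skeletal muscle genes Acta1 and Ckm and the leukocyte gene Ptprc did not exceed 0.44 RPKM in the 6 libraries. Across the 18 libraries 13022 to 13490 genes reached 1 RPKM, and the correlation between libraries of a group was 0.988 to 0.995, against 0.984 to 0.994 between groups. Total read counts were not given. Relative depth, read from the value of 1 read in 84 scarce genes, ran from 0.99 to 1.03 in the 6 libraries and from 0.97 to 1.05 in the 18. As few as 16 of these genes were at 1 read in a library. The genes were chosen for 1-read values that lay close together, which favours ratios near 1. The range therefore cannot show that the libraries were equally deep.

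Among the 6 libraries, control-FMT replicates 2 and 3 stood apart by some genes abundant in a neighbouring tissue. Crisp1, a secreted protein of the epididymis, was listed at 1.83, 116.64 and 23.11 RPKM in control-FMT replicates 1, 2 and 3, against 0.15 RPKM in each HFD_STZ library. Cd52, also abundant in epididymis, was at 3.39, 80.99 and 20.25 RPKM in control-FMT, against 2.55, 2.93 and 3.29 RPKM in HFD_STZ. The 17 epididymal genes of the list summed to 11.12, 262.06 and 59.11 RPKM in control-FMT, against 8.64, 8.05 and 8.55 RPKM in HFD_STZ. With no filter, 10 of the 17 were higher and 5 lower (median log2 difference 0.05). The epididymal marker Lcn5 was listed at 0 in all 6 and did not exceed 0.12 RPKM in the 18. So control-FMT replicate 2 and, less so, replicate 3 were high in Crisp1 and Cd52. Replicate 1 was close to the HFD_STZ libraries. Sums above that of control-FMT replicate 2 stood in replicate 3 of AOS-FMT (430.52 RPKM), HFD_STZ_AOS (385.93 RPKM) and control (390.82 RPKM). Whether epididymal tissue was present was not tested. The adipocyte genes were highest in another library, control-FMT replicate 3, and were high in replicate 3 of AOS-FMT and HFD_STZ_AOS too, as described with that list. Among erythrocyte genes, Hbb-bs was at 1.73, 0 and 17.87 RPKM in control-FMT, against 23.87, 31.83 and 20.69 RPKM in HFD_STZ, without overlap (log2 difference -2.81, adjusted p 0.249). Hba-a1 overlapped, at 133, 130.38 and 101 RPKM in control-FMT and 114, 144 and 178 RPKM in HFD_STZ. Of 8 tested erythrocyte genes, 3 were higher and 5 lower in control-FMT, and the reason for the Hbb-bs difference was not tested. More generally, in such whole-tissue libraries, fewer cells of a type and less RNA per cell cannot be told apart.

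**Figure D1:**
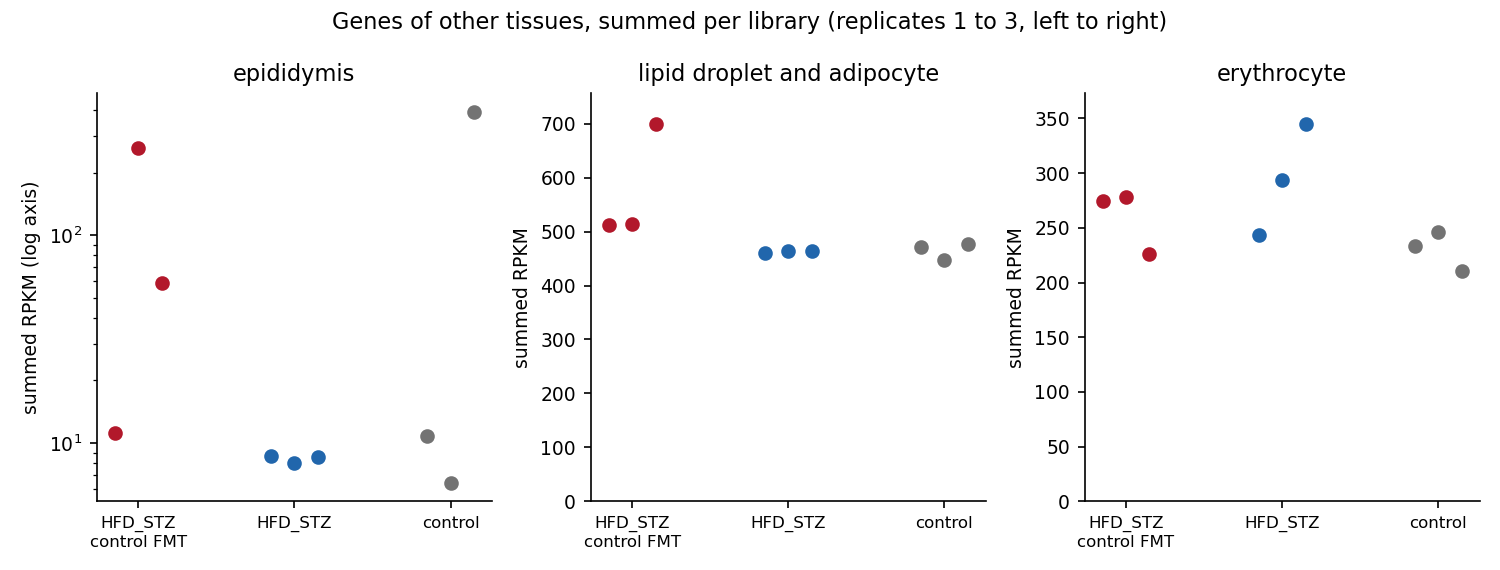
Summed RPKM of the epididymal (log axis), lipid droplet and adipocyte, and erythrocyte gene lists in control-FMT, HFD_STZ and control libraries, 1 point per library. Control-FMT replicate 2 reaches 262.06 RPKM of epididymal genes and control-FMT replicate 3 reaches 699.83 RPKM of lipid droplet and adipocyte genes, while the HFD_STZ libraries lie close together on both lists.

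1 of the 13874 genes changed, a background of 0.00721%. Hsd3b6, the 3-beta-hydroxysteroid dehydrogenase typical of adult mouse Leydig cells, was at 9.51, 8.59 and 10.98 RPKM in control-FMT, against 33.31, 23.59 and 31.28 RPKM in HFD_STZ. Every control-FMT library lay below every HFD_STZ library, and the closest values of the groups were more than 10 RPKM apart. The means were 9.69 ± 1.21 RPKM in control-FMT and 29.4 ± 5.13 RPKM in HFD_STZ (SD, n = 3 each). Hsd3b6 fell, with a log2(RPKM + 1) difference of -1.5 ± 0.16 (standard error) and an adjusted p of 0.00114 in limma's test. With only the 6 libraries in the fit the adjusted p was 0.0712, and it was 0.12 without libraries over 3 times the median Crisp1, which left control-FMT with 1 library. Without the libraries at 100 RPKM or more of Crisp1, which removed control-FMT replicate 2, the log2 difference was -1.42 with an adjusted p of 0.0222.

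Hsd3b6 was also low against the other groups of the series. It was at 17.92, 20.27 and 19.91 RPKM in AOS-FMT, at 25.43, 34.15 and 34.93 RPKM in HFD_STZ_AOS, at 29.32, 32.98 and 26.40 RPKM in AOS and at 25.13, 32.21 and 40.08 RPKM in control. The order of the levels was thus control-FMT lowest, then AOS-FMT, and then 4 groups whose libraries overlapped. The 3 control-FMT libraries did not overlap with any other group. Against control the log2 difference was -1.63 with an adjusted p of 0.00037, and Hsd3b6 was again the 1 gene called (0.00721% of those tested). That call was lost without the libraries with 100 RPKM or more of Crisp1, 1 in each group, with a difference of -1.39 and an adjusted p of 0.0707, and without those over 3 times the median Crisp1 (-1.49, adjusted p 0.158). Against AOS-FMT it was -0.93 with an adjusted p of 0.0973, which did not pass. These comparisons share the control-FMT libraries.

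The related gene Hsd3b1 stood the other way. It was at 136.14, 143.07 and 128.35 RPKM in control-FMT, against 97.82, 113.53 and 74.67 RPKM in HFD_STZ. The groups did not overlap, but the log2 difference of 0.53 ± 0.21 did not pass (unadjusted p 0.0247, adjusted p 0.238). Hsd3b1 was at 117.98, 180.73 and 110.38 RPKM in AOS-FMT and at 81.63, 64.46 and 67.45 RPKM in control, and control-FMT minus control was 0.93 with an adjusted p of 0.0975. Summed over both genes, RPKM was 145.65, 151.66 and 139.33 in control-FMT, against 131.13, 137.12 and 105.95 in HFD_STZ. The summed level was thus not lower in control-FMT. Hsd3b6 made up 6.53, 5.66 and 7.88% of the sum in control-FMT, against 25.40, 17.20 and 29.52% in HFD_STZ. The mean share was 6.69 ± 1.12% in control-FMT and 24.0 ± 6.27% in HFD_STZ (SD, n = 3 each), a difference of -17.4 percentage points. The exact two-sided permutation p was 0.1 for the share and for the sum, the smallest that 3 libraries against 3 can give. Mean shares in the other groups were 12.9% in AOS-FMT, 26.9% in HFD_STZ_AOS, 31.5% in AOS and 31.4% in control. The 2 genes are near-identical neighbours, so reads can be split between them in counting and both levels are uncertain.

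Both genes lie on the minus strand of chromosome 3, Hsd3b6 at 98805504 to 98814443 and Hsd3b1 at 98852194 to 98859794 (GENCODE vM21, GRCm38/mm10), and both are protein-coding. The 250 bases before each start site are shown because the levels of the neighbouring paralogs stood in opposite directions. They come from RefSeq (GRCm38.p6), at chr3:98814444-98814693 for Hsd3b6 and chr3:98859795-98860044 for Hsd3b1, and read 5′ to 3′ along the gene. Capitals mark AGATAA on either strand, a letter pattern bound by GATA factors.
Hsd3b6: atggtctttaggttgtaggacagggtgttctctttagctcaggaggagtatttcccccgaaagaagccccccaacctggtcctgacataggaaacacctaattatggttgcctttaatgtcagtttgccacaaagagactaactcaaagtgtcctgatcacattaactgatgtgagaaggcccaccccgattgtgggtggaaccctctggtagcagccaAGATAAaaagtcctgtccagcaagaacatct
Hsd3b1: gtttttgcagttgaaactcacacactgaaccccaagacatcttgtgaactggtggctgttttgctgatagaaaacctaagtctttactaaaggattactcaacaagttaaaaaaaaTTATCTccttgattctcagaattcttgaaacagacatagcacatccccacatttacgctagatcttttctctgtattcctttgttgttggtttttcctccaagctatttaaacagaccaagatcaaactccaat
AGATAA occurred 1 time in each promoter, starting at -31 from the start site in Hsd3b6 and, on the opposite strand as TTATCT, at -134 in Hsd3b1. It occurred in 9.99% of the 32851 RefSeq promoter windows of this length. AAGGTCA, a pattern of nuclear receptors such as the steroidogenic factor Nr5a1, occurred 0 times in each and in 4.08% of all windows. TTANGTAA was searched as well, with 0 matches in each promoter and 2.06% of all windows. The patterns were searched on both strands and were chosen after the promoters had been read, and a match is a description of letters, not a binding site.

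The other steroidogenic genes did not pass the test. Cyp17a1 was at 220.27, 266.33 and 205.70 RPKM in control-FMT, against 271.76, 290.71 and 303.42 RPKM in HFD_STZ, so all 3 control-FMT libraries were lower (log2 difference -0.33 ± 0.12, adjusted p 0.219). Scarb1, which takes up cholesterol from high density lipoprotein, was at 53.95, 56.95 and 54.15 RPKM in control-FMT, against 61.99, 68.40 and 72.11 RPKM in HFD_STZ, again without overlap (-0.29 ± 0.12, adjusted p 0.246). Star was at 31.23, 40.98 and 32.09 RPKM in control-FMT and 39.39, 44.17 and 44.14 RPKM in HFD_STZ, and these overlapped. Cyp11a1 overlapped too, at 104.79, 115.83 and 88.56 RPKM in control-FMT and 107.23, 119.50 and 144.90 RPKM in HFD_STZ. Insl3 was at 3518, 2958 and 2275 RPKM in control-FMT and 3659, 3016 and 3881 RPKM in HFD_STZ, with the lowest value in control-FMT replicate 3. Hsd17b3, the enzyme of the last step to testosterone, had a log2 difference of 0.00 ± 0.18. Of 19 tested Leydig cell genes, 8 were higher and 11 lower in control-FMT, with a median log2 difference of -0.13. At an unadjusted p under 0.05 there were 1 higher and 3 lower (Hsd3b6, Cyp17a1 and Scarb1), 21.1% of the list against 16.2% of all tested genes. The 3 became 1 without control-FMT replicate 3 or without HFD_STZ replicate 3.

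**Figure D2:**
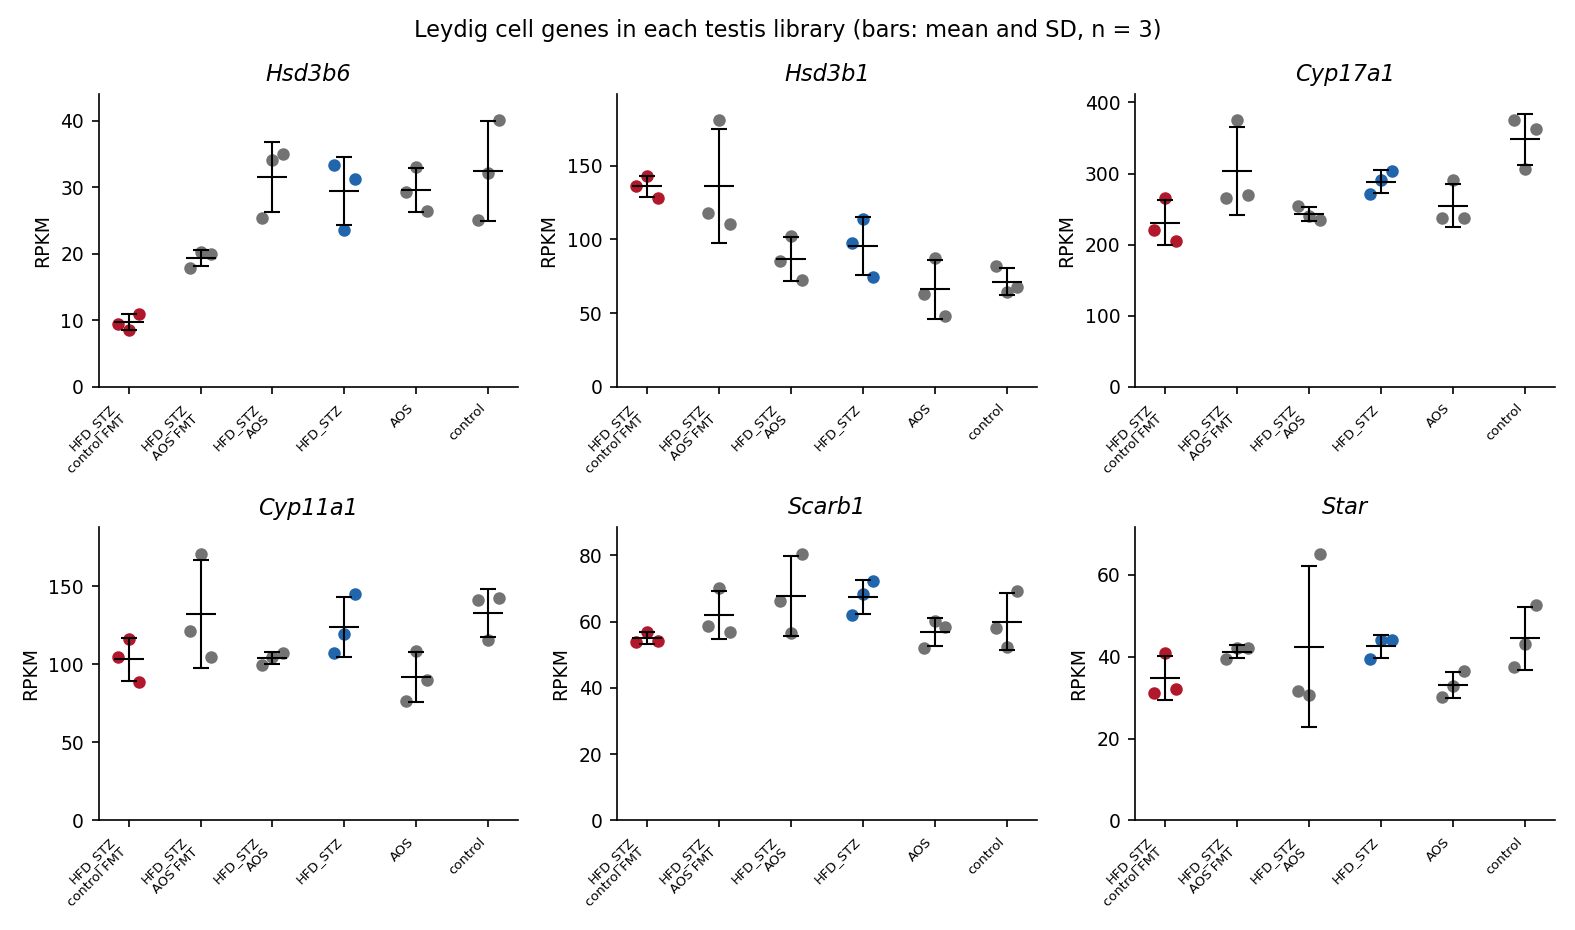
RPKM of 6 Leydig cell genes in every library of the 6 groups, with the group mean and SD (n = 3). Hsd3b6 is lowest in the control-FMT libraries, at 8.59 to 10.98 RPKM, while Hsd3b1 is at 128.35 to 143.07 RPKM there, above the HFD_STZ libraries.

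No other gene passed. At an unadjusted p under 0.05 stood 2243 genes (16.2%), 841 higher (6.06%) and 1402 lower (10.1%) in control-FMT. Groups that did not overlap were found for 1110 genes on the higher side (8%) and 2225 on the lower (16%). The median difference of all genes was -0.03. The split between directions depended on scaling: 37.5% of the genes with an unadjusted p under 0.05 were higher, but 55.4% were with libraries scaled by median ratios (1182 higher, 950 lower) and 52.3% with the trend on transcript length removed (1027 higher, 935 lower).

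Differences also ran with transcript length. Over 13578 tested genes with a known length the Spearman correlation of length with the log2 difference, control-FMT minus HFD_STZ, was -0.222, across genes, which are not independent. The median difference was 0.01 for the 2021 genes with transcripts up to 700 bases and -0.09 for the 333 genes with transcripts over 5000 bases. The same correlation was -0.237 for control-FMT minus control, -0.005 for control-FMT minus AOS-FMT and -0.01 for HFD_STZ minus control. Transcript length therefore moved with the comparison between control-FMT and mice without a transfer, and its part in the gene group differences was tested only by removing the trend.

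**Figure D3:**
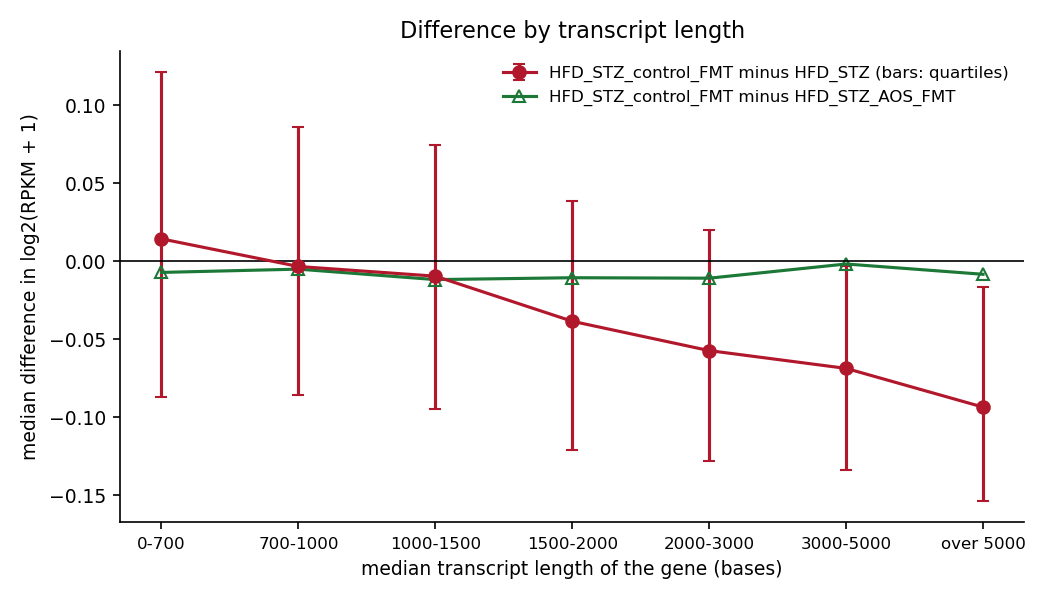
Median log2 difference of tested genes by transcript length, for control-FMT minus HFD_STZ (filled, with quartiles) and control-FMT minus AOS-FMT (open). Against HFD_STZ the medians run from 0.01 in the shortest to -0.09 in the longest genes, while against AOS-FMT they stay near 0 in every length class.

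Genes named by rank of p in either direction were picked among those whose groups did not overlap. Their lack of overlap was thus fixed by the choice and is no further result. Of the 12 higher genes so picked, 5 are described first. Tmsb10, a thymosin that binds actin monomers, was at 2597, 2309.6 and 2143 RPKM in control-FMT, against 1823, 1744 and 1961 RPKM in HFD_STZ. All 3 control-FMT libraries were higher (log2 difference 0.35 ± 0.06, adjusted p 0.101), and without control-FMT replicate 3 the adjusted p was 0.0372. Crmp1, which binds tubulin downstream of semaphorins, was at 4.49, 4.62 and 4.2 RPKM in control-FMT, against 2.66, 2.22 and 2.02 RPKM in HFD_STZ. Its difference of 0.72 ± 0.14 had an adjusted p of 0.101. Crip1, a small LIM domain protein, was at 12.70, 9.44 and 11.40 RPKM in control-FMT, against 5.49, 7.11 and 7.04 RPKM in HFD_STZ and 5.49, 5.34 and 6.14 RPKM in control. Its difference was 0.69 ± 0.13 against HFD_STZ (adjusted p 0.101) and 0.86 against control (adjusted p 0.0627). Crip1 was highest in control-FMT replicate 1, the library of that group lowest in Crisp1, and whether Crip1 went with Crisp1 was not tested. Myl6, a myosin light chain, was at 114.60, 114.59 and 114.47 RPKM in control-FMT, against 94.20, 96.13 and 102.36 RPKM in HFD_STZ (0.23 ± 0.05). Lgals1, the lectin galectin 1, was at 41.28, 39.11 and 43.80 RPKM in control-FMT, against 32.11, 31.76 and 30.75 RPKM in HFD_STZ (0.38 ± 0.08). Both had an adjusted p of 0.125.

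The other higher genes of that rank were Hint2, Mrpl9, Banf1, Sec23a, Acyp1, Rnf121 and Cox4i1, with log2 differences of 0.22 to 0.45. Sec23a, a coat protein of vesicles leaving the endoplasmic reticulum, was at 38.82, 44.99 and 44.09 RPKM in control-FMT, against 35.39, 34.48 and 34.48 RPKM in HFD_STZ and 46.65, 45.11 and 45.01 RPKM in control. The control-FMT libraries thus lay above all HFD_STZ libraries. Their highest value, 44.99 RPKM, was nearly equal to the lowest of control, 45.01 RPKM. The log2 difference was 0.28 ± 0.06 against HFD_STZ (adjusted p 0.101) and -0.10 against control (adjusted p 0.464). Hint2, a mitochondrial hydrolase, was at 6.64, 8.15 and 6.56 RPKM in control-FMT, against 4.60, 5.51 and 4.64 RPKM in HFD_STZ. It did not pass either (0.45 ± 0.09, adjusted p 0.101).

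Among the lower genes, Ncoa1, a coactivator of nuclear receptors, was at 5.25, 5.13 and 5.46 RPKM in control-FMT, against 8.17, 7.35 and 7 RPKM in HFD_STZ (log2 difference -0.44 ± 0.07). Ptch1, the receptor of hedgehog ligands, was at 1.09, 1.05 and 1.01 RPKM in control-FMT, against 1.77, 1.55 and 1.78 RPKM in HFD_STZ (-0.40 ± 0.07). Both groups were tight and did not overlap for either gene, and the adjusted p was 0.0924 for each. Without a filter on low values Ptch1 had an adjusted p of 0.0387. Its ligand gene in Sertoli cells, Dhh, was at 4.12, 3.52 and 3.43 RPKM in control-FMT and 3.09, 4.32 and 3.26 RPKM in HFD_STZ, which overlapped. Shoc2, a scaffold of the RAS pathway, was at 8.84, 7.93 and 8.64 RPKM in control-FMT, against 10.59, 10.68 and 10.71 RPKM in HFD_STZ (-0.30 ± 0.05, adjusted p 0.0924).

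Brsk1 and Fitm1 were lower in control-FMT than in HFD_STZ, without passing. Brsk1 was named by its rank of p, Fitm1 only as a member of the lipid droplet list. Brsk1, a serine/threonine kinase, was at 22.74, 19.70 and 21.66 RPKM in control-FMT, against 31.05, 30.64 and 33.14 RPKM in HFD_STZ and 22.06, 20.57 and 22.00 RPKM in control. The difference was -0.55 ± 0.11 against HFD_STZ (adjusted p 0.117) and -0.01 against control (adjusted p 0.972). Fitm1, which acts in the budding of lipid droplets, was at 8.93, 8.21 and 7.31 RPKM in control-FMT, against 20.06, 13.64 and 17.22 RPKM in HFD_STZ and 4.86, 5.54 and 6.99 RPKM in control. All control-FMT libraries lay below the HFD_STZ and above the control libraries. The difference was -0.96 ± 0.23 against HFD_STZ (adjusted p 0.125) and 0.44 against control (adjusted p 0.422). AOS-FMT libraries were at 23.06, 25.10 and 25.52 RPKM of Brsk1 and at 9.63, 7.97 and 8.66 RPKM of Fitm1. The remaining lower genes named by rank of p were Psg16, Sec24b, Golph3l, Tfcp2, Cep83, Mdn1 and Fstl3. Their log2 differences were -0.38 to -0.21, with adjusted p values of 0.101 to 0.125 in limma's test.

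**Figure D4:**
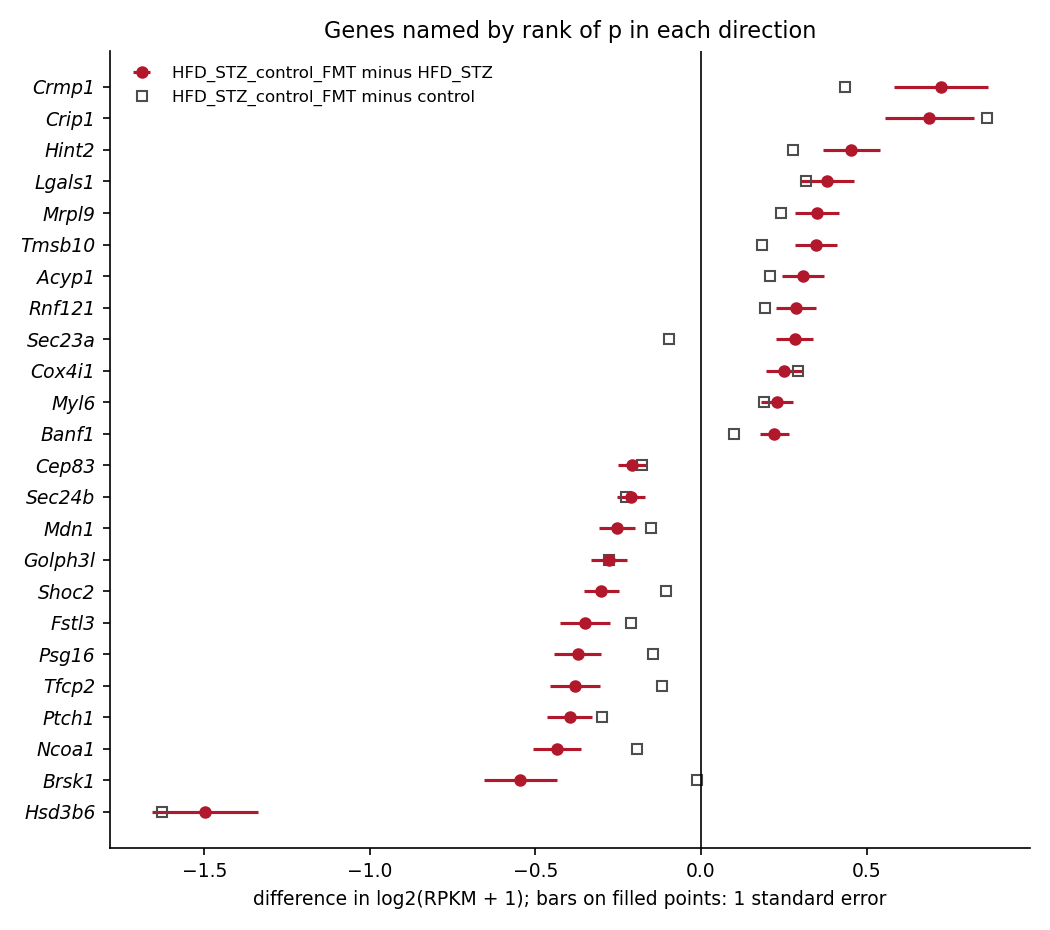
Log2 differences of the 24 genes with the smallest p in either direction, among genes whose groups did not overlap. Filled points, with 1 standard error, are control-FMT minus HFD_STZ, and open points are control-FMT minus control. Hsd3b6 is near -1.5 in both, whereas Brsk1 is at -0.55 against HFD_STZ and -0.01 against control.

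Gene lists were described by counts and medians only. Genes of protein synthesis and respiration stood higher in control-FMT than in HFD_STZ. Higher were 32 of 34 oxidative phosphorylation genes (median log2 difference 0.13) and 30 of 32 cytosolic ribosomal protein genes (0.14). Over all tested genes 5700 of 13874 were higher, with a median of -0.03. At an unadjusted p under 0.05 stood 17 oxidative phosphorylation and 19 ribosomal genes, all higher, which is 50% and 59.4% of the lists, against 6.06% of all tested genes on that side. Without control-FMT replicate 1 these counts were 9 and 10, and without replicate 2 they were 13 and 11. limma called 0 members of either list after adjustment over all genes. Against AOS-FMT the medians were -0.01 and 0.02. The ribosomal list summed to 8751, 8847 and 8006 RPKM in control-FMT and to 7490, 7469 and 7979 RPKM in HFD_STZ. In HFD_STZ_AOS, which had no transfer, it summed to 8588, 8545 and 8801 RPKM. Cox4i1, a subunit of cytochrome c oxidase, was at 312.31, 318.10 and 278.90 RPKM in control-FMT, against 254.89, 245.63 and 262.32 RPKM in HFD_STZ (0.25 ± 0.05, adjusted p 0.125). Rps18, of the small ribosomal subunit, was at 315.70, 321.85 and 283.04 RPKM in control-FMT, against 245.13, 237.71 and 267.20 RPKM in HFD_STZ (0.29 ± 0.07, adjusted p 0.125). In both genes control-FMT replicate 3 was the lowest of its group and still above the HFD_STZ libraries. These lists hold short genes, with a median transcript length of 626.5 and 712.25 bases, against 1359.5 bases over all tested genes. With the length trend removed their medians were 0.13 and 0.14, and they were positive in all 15 other settings.

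Germ cell lists had medians between -0.08 and 0.08. Of 30 round spermatid genes 22 were higher (median 0.05) and 7 of these had an unadjusted p under 0.05. Of 29 genes of elongating spermatids and sperm chromatin 24 were higher (0.08), also with 7 at an unadjusted p under 0.05, against 6.06% of all tested genes on that side. Without control-FMT replicate 1 the counts were 3 and 4, and the second was 4 without HFD_STZ replicate 1 as well. Tssk6, a testis-specific kinase of sperm formation, was at 269.72, 270.06 and 260.05 RPKM in control-FMT, against 222.27, 240.17 and 239.93 RPKM in HFD_STZ (0.19 ± 0.04, adjusted p 0.125). Meig1, needed for the sperm tail in mouse, was at 2699, 2507 and 2424 RPKM in control-FMT, against 2068, 2121 and 2165 RPKM in HFD_STZ (0.26 ± 0.07, adjusted p 0.126). Prm1 overlapped, at 15886, 16113 and 14355 RPKM in control-FMT and 12857, 12920 and 14483 RPKM in HFD_STZ (0.20 ± 0.09). Of 35 meiosis genes 29 were lower (median -0.07), 4 of them with an unadjusted p under 0.05, which is 11.4% of the list against 10.1% of all genes on that side. Meioc, which keeps germ cells in meiotic prophase, was at 35.65, 34.89 and 36.60 RPKM in control-FMT, against 43.08, 42.09 and 39.41 RPKM in HFD_STZ (-0.21 ± 0.07, adjusted p 0.16). The spermatocyte gene Sycp3 was at 196.24, 172.45 and 177.67 RPKM in control-FMT and 194.70, 176.95 and 171.96 RPKM in HFD_STZ, a difference of 0.01. Of 16 spermatogonial genes 11 were lower (-0.08) and 0 reached an unadjusted p under 0.05.

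Genes of the motile cilium and axoneme were lower in 18 of 23 members (median -0.09), and 9 of these had an unadjusted p under 0.05, beside 1 higher, against 10.1% of all tested genes on the lower side. The 9 became 0 without HFD_STZ replicate 1, 2 without control-FMT replicate 1, 5 without HFD_STZ replicate 2 and 2 with median ratio scaling, so the count rested on single libraries and on scaling. Ift88, of intraflagellar transport, was at 33.90, 33.21 and 35.03 RPKM in control-FMT, against 43.68, 37.44 and 35.88 RPKM in HFD_STZ (-0.19 ± 0.06). Rsph1, of the radial spoke, went against the list, at 1054, 1019 and 1012 RPKM in control-FMT and 954, 940.38 and 911 RPKM in HFD_STZ (0.14 ± 0.05). These genes are long, with a median of 1662 bases, and with the length trend removed the median was -0.05 and the count of lower members with an unadjusted p under 0.05 was 3.

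Sertoli cell genes were lower in 19 of 24 members (median -0.11), 6 of them with an unadjusted p under 0.05, against 10.1% of all tested genes on that side. The 6 became 3 without HFD_STZ replicate 1 or with median ratio scaling, and 2 without libraries over 3 times the median Crisp1. Wt1, the transcription factor of Sertoli cell identity, was at 10.27, 10.45 and 9.91 RPKM in control-FMT, against 12.14, 11.48 and 12.08 RPKM in HFD_STZ (-0.20 ± 0.07, adjusted p 0.173). Inhbb, a subunit of inhibin and activin, was at 4.98, 4.69 and 4.66 RPKM in control-FMT, against 6.32, 5.59 and 5.49 RPKM in HFD_STZ (-0.23 ± 0.08). In both genes the groups did not overlap. Amh overlapped, at 1.14, 0.55 and 0.64 RPKM in control-FMT and 0.91, 0.62 and 1.03 RPKM in HFD_STZ. Blood-testis barrier junction genes were lower in 12 of 17 members (-0.06), 5 of them with an unadjusted p under 0.05, beside 1 higher. The share of all tested genes was 10.1% on the lower side. The 5 became 2 without control-FMT replicate 1 or without HFD_STZ replicate 3. Tjp1, a scaffold of tight junctions, was at 16.80, 15.54 and 17.11 RPKM in control-FMT, against 19.61, 19.84 and 17.55 RPKM in HFD_STZ (-0.19 ± 0.06).

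Lipid gene lists lay on both sides of 0. Lipid droplet and adipocyte genes were higher in 16 of 20 members (median 0.25), 8 of them with an unadjusted p under 0.05, while Fitm1 was lower. The share of all tested genes was 6.06% on the higher side. Adipoq, the adipocyte hormone adiponectin, was at 14.89, 13.11 and 16.32 RPKM in control-FMT, against 11.07, 11.23 and 9.42 RPKM in HFD_STZ (0.45 ± 0.14, adjusted p 0.16). The adipocyte marker Cfd was at 7.13, 4.97 and 21.20 RPKM in control-FMT, against 2.17, 2.26 and 0.74 RPKM in HFD_STZ, and Fabp4 at 28.69, 22.71 and 104.95 RPKM in control-FMT, against 10.25, 11.52 and 3.15 RPKM in HFD_STZ. Each was far highest in control-FMT replicate 3. Plin1, a coat protein of adipocyte lipid droplets, was at 0.90, 1.19 and 2.29 RPKM in control-FMT and 0.99, 0.89 and 0.77 RPKM in HFD_STZ, which overlapped. The list summed to 512.37, 513.43 and 699.83 RPKM in control-FMT, against 460 to 465 RPKM in HFD_STZ. It was also high in replicate 3 of AOS-FMT (672.27 RPKM) and of HFD_STZ_AOS (635.04 RPKM), which had no transfer. Without control-FMT replicate 3 the median was 0.10, and 2 higher members had an unadjusted p under 0.05. Fatty acid oxidation and ketone genes were lower in 19 of 21 members (-0.10), 4 of them with an unadjusted p under 0.05. The share of all tested genes was 10.1% on that side. The 4 became 2 without control-FMT replicate 3 or without HFD_STZ replicate 3. Cpt1a, which starts mitochondrial fatty acid uptake, was at 9.70, 9.65 and 9.94 RPKM in control-FMT, against 11.14, 12.51 and 12.33 RPKM in HFD_STZ (-0.27 ± 0.08, adjusted p 0.147). Cholesterol synthesis and uptake genes were lower in 19 of 23 members (-0.11), 3 of them with an unadjusted p under 0.05, beside 1 higher. That is close to the 10.1% of all tested genes on the lower side, and the 3 became 0 without control-FMT replicate 1 and 1 with median ratio scaling, without control-FMT replicate 3 or without HFD_STZ replicate 3.

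Immune genes were low and mixed. Tap1 and Tap2, which carry peptides to MHC class I molecules, were lower in control-FMT. Tap1 was at 2.99, 0.59 and 1.78 RPKM in control-FMT, against 5.20, 3.35 and 6.68 RPKM in HFD_STZ (-1.18 ± 0.38, adjusted p 0.163). Tap2 was at 2.52, 1.13 and 1.12 RPKM in control-FMT, against 3.46, 2.79 and 4.17 RPKM in HFD_STZ (-0.82 ± 0.24, adjusted p 0.149). Neither overlapped, and in control Tap1 was at 2.87, 0.73 and 3.89 RPKM. Of 18 genes of MHC class I processing 11 were lower (median -0.04), 4 of them with an unadjusted p under 0.05. The 4 became 2 without control-FMT replicate 2 or without HFD_STZ replicate 3. Of 13 interferon response genes 10 were lower (-0.12), 1 of them with such a p. Over all tested genes, 10.1% were lower and 6.06% higher with such a p. The interferon median was positive in 1 of the 15 other settings. Of 16 macrophage and leukocyte genes 10 were higher (0.12), 3 of them with an unadjusted p under 0.05, beside 2 lower. C1qa, the complement gene of macrophages, was at 10.31, 8.75 and 11.66 RPKM in control-FMT, against 6.33, 8.28 and 6.63 RPKM in HFD_STZ (0.48 ± 0.15). Cx3cr1, the fractalkine receptor, went the other way, at 0.74, 0.74 and 0.90 RPKM in control-FMT and 1.42, 1.61 and 1.65 RPKM in HFD_STZ (-0.51 ± 0.18). The macrophage markers Cd68 and Csf1r overlapped between the groups.

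Tsc22d3, a target of the glucocorticoid receptor known as GILZ, was at 6.45, 6.46 and 6.99 RPKM in control-FMT, against 4.67, 5.25 and 4.88 RPKM in HFD_STZ and 4.10, 4.99 and 4.72 RPKM in control. The difference was 0.36 ± 0.08 against HFD_STZ (adjusted p 0.125) and 0.45 against control (adjusted p 0.0741). The list of circadian and glucocorticoid-responsive genes did not share this, with 10 of 19 members higher and a median of 0.00. Mt2, a metallothionein of the same list, was at 504.53, 497.99 and 490.24 RPKM in control-FMT, against 417.05, 421.25 and 452.00 RPKM in HFD_STZ (0.21 ± 0.08). Glycolysis genes were higher in 12 and lower in 12 of 24 members, with 5 higher and 0 lower at an unadjusted p under 0.05. The 5 became 1 without control-FMT replicate 1 or without HFD_STZ replicate 1, and 2 without control-FMT replicate 2. Pgam2, a phosphoglycerate mutase, was at 1183, 1210.25 and 1128 RPKM in control-FMT, against 1013, 908 and 1008 RPKM in HFD_STZ (0.27 ± 0.08, adjusted p 0.163). Lists with at most 1 member in either direction at an unadjusted p under 0.05 included inflammation, endothelium, extracellular matrix, muscle, immediate early, insulin and glucose transport, and antioxidant genes. Heat shock genes had 3 higher of 20, retinoic acid genes 2 higher of 18 and apoptosis regulators 2 lower of 18 at that p. For these lists and glycolysis, the share of all tested genes was 6.06% higher and 10.1% lower.

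**Figure D5:**
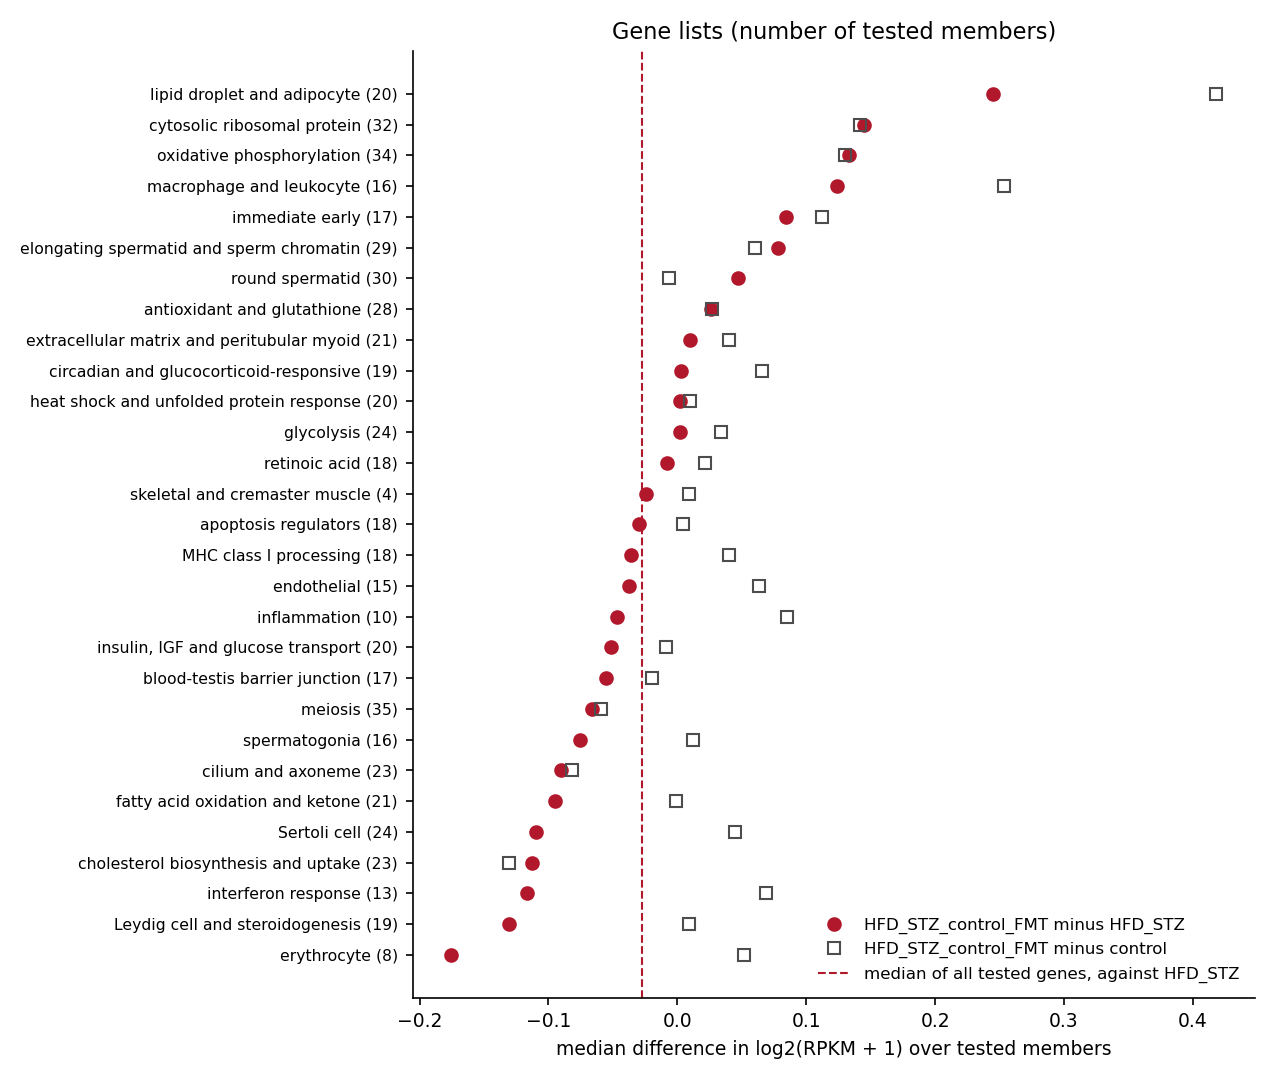
Median log2 difference of each gene list, control-FMT minus HFD_STZ (filled) and control-FMT minus control (open), with the number of tested members and a dashed line at the median of all tested genes against HFD_STZ (-0.03). Oxidative phosphorylation and ribosomal protein lists stand to the right of the line in both comparisons, while the Leydig and Sertoli cell lists are to the left against HFD_STZ and near 0 against control; the epididymal list, with a median of 1.47, is not plotted.

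The 2 transfers were also compared directly, control-FMT against AOS-FMT. After adjustment 3 genes passed in limma's test (0.0216%), against 635 before it (4.58% at an unadjusted p under 0.05). Kap, an androgen-regulated kidney protein of mouse, was listed at 0 in the 3 control-FMT libraries, against 39.24, 31.16 and 31.36 RPKM in AOS-FMT, with an adjusted p of 4.62e-12. In the libraries of the other 4 groups Kap was at most 0.73 RPKM. The beta-defensin gene Defb47 was at 0.09, 0.09 and 0.00 RPKM in control-FMT, against 37.31, 2.15 and 14.48 RPKM in AOS-FMT (-3.54, adjusted p 0.0447). None of the 24 genes with the smallest p against HFD_STZ was called against AOS-FMT. With 0.0216% of all tested genes called, this says little about the 24. Among them the log2 difference, control-FMT minus AOS-FMT, was -0.93 for Hsd3b6, 0.32 for Crmp1 and Crip1 and 0.27 for Hint2. Tmsb10 was at 2406, 2391 and 2414 RPKM in AOS-FMT, Brsk1 at 23.06, 25.10 and 25.52 RPKM and Ptch1 at 1.16, 1.41 and 1.25 RPKM, with log2 differences of -0.04, -0.19 and -0.15 for control-FMT minus AOS-FMT.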

How the data were processed

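RNA of 18 testis samples was sequenced. Per the labels' protocols, total RNA of snap-frozen tissue was isolated with Trizol and columns for standard Illumina libraries. Bowtie 0.12.2 and mm10 are named in the submitters' processing notes, with no role. Counting, annotation and strand use are not given in the sources used here. In all, the authors deposited 1 table of 20985 rows of values per gene symbol, read here as RPKM from the values themselves, since no header names the unit. RPKM divides reads by gene length and library total, so a change in abundant transcripts moves all others.

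The 6 rows of 3 repeated symbols were left out, and no gene was named from 22 symbols turned into dates. Values were taken as log2(RPKM + 1), which understates the change of low genes. Genes reaching 1 RPKM in 3 or more libraries entered limma 3.58.1 in R 4.3.3: trended empirical Bayes, 1 coefficient per group over 18 libraries, 12 residual and 3.71 prior degrees of freedom, two-sided, with Benjamini and Hochberg adjustment over 13874 genes and a threshold of 0.05. Lengths and coordinates came from GENCODE vM21 and matched 96.5% of symbols. Total depth is unknown. Tests were checked on simulated data.

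Named were the genes past the threshold, filled up to 12 per direction with the smallest p, 1 RPKM or more on average in the higher group and groups that did not overlap, the 2 members of each list with the smallest p, and a fixed marker panel. Outside this rule, Hsd3b1, Scarb1, Cyp11a1, Hsd17b3, Inhbb, Dhh, Fabp4, Cfd, Plin1, Cd52, Hba-a1 and Csf1r were named after their values were seen, as were the genes called between the transfers, of which 1 is not reported here. The comparison, the lists and the rule were chosen with earlier results of these data known. Alternatives were median ratio scaling, no filter, a pseudocount of 0.1, only the 6 libraries compared, robust empirical Bayes, the replicate number as a block, removal of the length trend (lowess, span 0.3), omission of libraries over 3 times the median Crisp1, and omission of each library. The omission of libraries with 100 RPKM or more of Crisp1 was chosen after seeing the data. Between control-FMT and HFD_STZ, deviations of libraries with equal replicate numbers were not positively correlated, so the libraries were treated as unpaired. Whether libraries with equal numbers shared a batch was not tested.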

Additional observations from a re-analysis of the deposited data

Results flagged for a closer look

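Kap and Defb47 differed between control-FMT and AOS-FMT, each higher in AOS-FMT. Kap had a log2 difference, control-FMT minus AOS-FMT, of -5.12 and Defb47 of -3.54, with adjusted p values in limma's test of 4.62e-12 and 0.0447. With any 1 control-FMT library left out, Kap still passed, but Defb47 did not. For Defb47 the AOS-FMT libraries ran from 2.15 to 37.31 RPKM, and Crisp1 was at 0.99, 11.49 and 164.71 RPKM in the same 3 libraries. Without AOS-FMT replicate 2, all 3 genes of the main fit were still called, Defb47 among them. The fit without libraries over 3 times the median Crisp1 left control-FMT with 1 library and cannot decide. Whether the difference in Defb47 went with Crisp1 thus stays untested. These genes are given here because the difference between the transfers was itself tested and passed.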

How the results depend on the processing

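Hsd3b6 kept its direction in the 15 other settings, with log2 differences of -1.64 to -1.40, and passed in 13 of them. Against HFD_STZ, 4 genes were called with no filter on low values (Hsd3b6, Zyg11a, Gm3757 and Ptch1) and 0 in limma with only the 6 libraries, where 2380 had an unadjusted p under 0.05. With the replicate block 2 were called, Hsd3b6 (adjusted p 0.00235) and Crmp1 (0.0111), and 2381 had an unadjusted p under 0.05. The correlations of deviations between equal replicate numbers were -0.138, -0.044 and -0.108. With 1 library left out, 1 to 14 genes were called and 1615 to 2291 had an unadjusted p under 0.05. The 14 came without control-FMT replicate 3, with 10 higher and 4 lower, Hsd3b6, Tmsb10, Cox4i1, Acyp1, Psg16 and Rplp1 among them. Without libraries over 3 times the median Crisp1 the 1 gene called was Ndufa1, not Hsd3b6. Leaving an arm with 1 library assumes that it varies like the other groups.

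Against AOS-FMT the count of 3 became 11 with no filter, 6 with only the 6 libraries, 8 without libraries over 3 times the median Crisp1 and 2 to 5 with 1 library left out, with 5 without AOS-FMT replicate 2. Against control the count of 1 became 2 with median ratio scaling or robust empirical Bayes, 13 with only the 6 libraries, 0 without libraries over 3 times the median Crisp1 or with 100 RPKM or more of it (1840 and 1582 at an unadjusted p under 0.05 in limma), and 1 to 4 with 1 library left out, with 4 without control-FMT replicate 1.

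Of 1350 values of 90 named genes, 12 changed direction, all in genes that did not pass. Ddx4 was at 0.0017 with the length trend removed. Without libraries over 3 times the median Crisp1, Nfkb1 was at 0.0062, Insl3 at 0.0081, Stra8 at -0.0396 and Amh at 0.2139. Amh was at 0.022 without control-FMT replicate 2 and without the libraries with 100 RPKM or more of Crisp1. Over the omissions of 1 library Sycp3 ran from -0.0476 to 0.0596, Stra8 from -0.0744 to 0.0906 and Amh from -0.2107 to 0.022. Sycp3 was at -0.0476, -0.009 and -0.0295 without control-FMT replicate 1, HFD_STZ replicate 2 and HFD_STZ replicate 3. Stra8 was at -0.0744 without control-FMT replicate 3 and at -0.0214 without HFD_STZ replicate 3. The causes were not tested. Total depth is unknown, so no limit on genes listed at 0 can be given.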
